A study of Mus musculus with 50 samples.

Results

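The genes described here are 9 members of the CC chemokine system, 7 ligands (Ccl2, Ccl7, Ccl12, Ccl8, Ccl3, Ccl4 and Ccl5) and 2 receptors (Ccr2 and Ccr1), chosen by name for their role in bringing monocytes into tissue, out of 21954 genes in the series. Chemokines are small secreted proteins that guide leukocytes along a gradient by binding G protein-coupled receptors on the cell surface. Ccr2 is the receptor through which classical monocytes leave the bone marrow and enter injured tissue, and it responds to Ccl2, Ccl7 and Ccl12, while Ccr1, carried by neutrophils, monocytes and macrophages, responds to ligands such as Ccl3, Ccl5 and Ccl7. Macrophages are known both to arise from recruited monocytes and to secrete these ligands themselves.

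The study sequenced polyadenylated RNA from 41 mouse digits and 9 cultures of bone marrow-derived macrophages. The terminal phalanx (P3) of hindlimb digit 3 was cut in young adult male C57Bl/6 mice. Of these digits, 29 were non-regenerative (NR), collected at 0, 3, 6, 12 and 24 h and at 3, 7, 14 and 21 d after amputation, with 3 digits at each time and 5 at 7 d. The other 12 were intermediate (INT), collected at 0 h, 24 h, 14 d and 21 d, with 3 at each time. Regenerative digits were not analysed here. Macrophages grown from the marrow of female C57BL/6 mice were left naive in basal medium (M0), activated with interferon gamma and lipopolysaccharide (M1) or activated with interleukin 4 (M2), with 24 h of activation and 3 cultures in each state. The labels do not say whether those cultures came from separate animals, so their p-values measure the spread between these cultures, which may be technical.

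Total expected counts ran from 1468749 to 13011782 per digit and from 15683424 to 27904773 per macrophage library, so scarce transcripts were measured far more precisely in the cultures. The labelled amputation level was 60 to 80% of the phalanx in NR digits and 41 to 55% in INT digits. Non-regenerative was defined as a level over 67%, yet 12 of the 29 digits labelled NR were at or below it, among them all 3 of 12 h (64 to 67%) and 2 of the 3 of 0 h. The labelled dates fall into 2 periods, and the NR digits of 12 h all came from the earlier one, which also holds NR 0 h replicate 1. The NR digits of 3 h and the INT digits of 21 d were also all earlier, and the NR digits of 21 d all later. In 5 pairs of digits the labels give the same digit mark, date and side. These were NR 0 h replicate 1 with NR 12 h replicate 3, INT 0 h replicates 2 and 3 with NR 12 h replicates 1 and 2, NR 3 d replicate 3 with NR 7 d replicate 1, and INT replicate 1 with NR replicate 3 of 14 d. Keratinocyte markers summed to 24262.4 to 29878.1 normalized TPM in the NR digits of 12 h, while Krt1 and Krt5 were at 0 in every macrophage culture. Levels below are normalized TPM, an abundance per transcript length scaled between libraries, tabulated separately for digits and macrophages, so no test was made between those 2 tables.

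The ligand genes lie in 2 runs on chromosome 11 of GRCm38 and the receptor genes in the same region of chromosome 9. Ccl2, Ccl7, Ccl12 and Ccl8 occupy 81.2 kb between positions 82035571 and 82116799, all on the + strand. Ccl5, Ccl3 and Ccl4 occupy 138.9 kb between 83525778 and 83664683, and Ccr1 and Ccr2 occupy 151.4 kb between 123962124 and 124113557. Ccl2 overlaps Gm17268 on the other strand, and whether counting used strand is not given in the sources used here.

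RefSeq promoter sequences of GRCm38.p6 were matched for 5 of the 9 members (Ccl12, Ccl8, Ccl3, Ccr2 and Ccr1). Those of Ccl12 and Ccl8, neighbours in the first run that differed in macrophages, where Ccl12 was higher in M1 than in M2 by over 2-fold and Ccl8 was not, are shown as the 250 bases before the gene start, with the TATA box letters TATAAA in capitals. They lie at chr11:82101595-82101844 and chr11:82114935-82115184, both on the + strand.
Ccl12: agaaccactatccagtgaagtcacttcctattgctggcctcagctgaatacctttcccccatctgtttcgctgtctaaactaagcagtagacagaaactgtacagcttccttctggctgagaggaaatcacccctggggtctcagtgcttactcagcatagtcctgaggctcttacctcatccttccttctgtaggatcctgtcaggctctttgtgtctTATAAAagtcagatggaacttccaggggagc
Ccl8: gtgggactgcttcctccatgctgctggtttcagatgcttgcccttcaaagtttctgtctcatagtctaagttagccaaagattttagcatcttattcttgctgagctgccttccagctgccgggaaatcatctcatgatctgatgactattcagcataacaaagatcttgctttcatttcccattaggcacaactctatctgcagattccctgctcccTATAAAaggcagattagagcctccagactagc
The capitals lie 31 to 26 bases before the start of Ccl12 and 32 to 27 bases before that of Ccl8. Searched on the gene strand, TATAAA was held by 2 of the 5 member promoters and by 8.12% of 27025 promoters of the same length. The letters TGANTCA, an AP-1 motif, GGANTTTCC, an NF-kappaB motif, and TTCNNNGAA, a STAT motif, were searched on both strands. None of the 5 member promoters held any of them, against 6.87%, 1.05% and 7.18% of all promoters. With shares this low, 5 promoters are too few to read anything from the absence. The Ccr2 stretch searched (chr9:124101933-124102182) also lies mostly inside the gene, which starts at 124101950 in the annotation used for positions.

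In NR digits the monocyte-attracting ligands Ccl2 and Ccl7 were the most abundant members, low at amputation and highest at 12 h. Across the 9 time points, 5 of the 8 members tested changed by edgeR's quasi-likelihood test with Benjamini-Hochberg adjustment (Ccl2, Ccl7, Ccl3, Ccl4 and Ccr1), against 7.62% of all genes. Ccl2 had adjusted p = 0.00313, Ccl7 0.0108, Ccl3 0.00801, Ccl4 1.56e-05 and Ccr1 0.00995. Ccr2 (adjusted p = 0.205), Ccl8 (0.265) and Ccl12 (0.369) did not pass, and Ccl5 was too low to test. The highest NR mean fell at 12 h for the 5 members that passed, at 6 h for Ccl12 (at 12 h on a log scale), at 3 d for Ccr2 and at 14 d for Ccl8 and Ccl5. In bulk tissue, fewer cells of a type and less RNA per cell cannot be told apart.

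**Figure D1:**
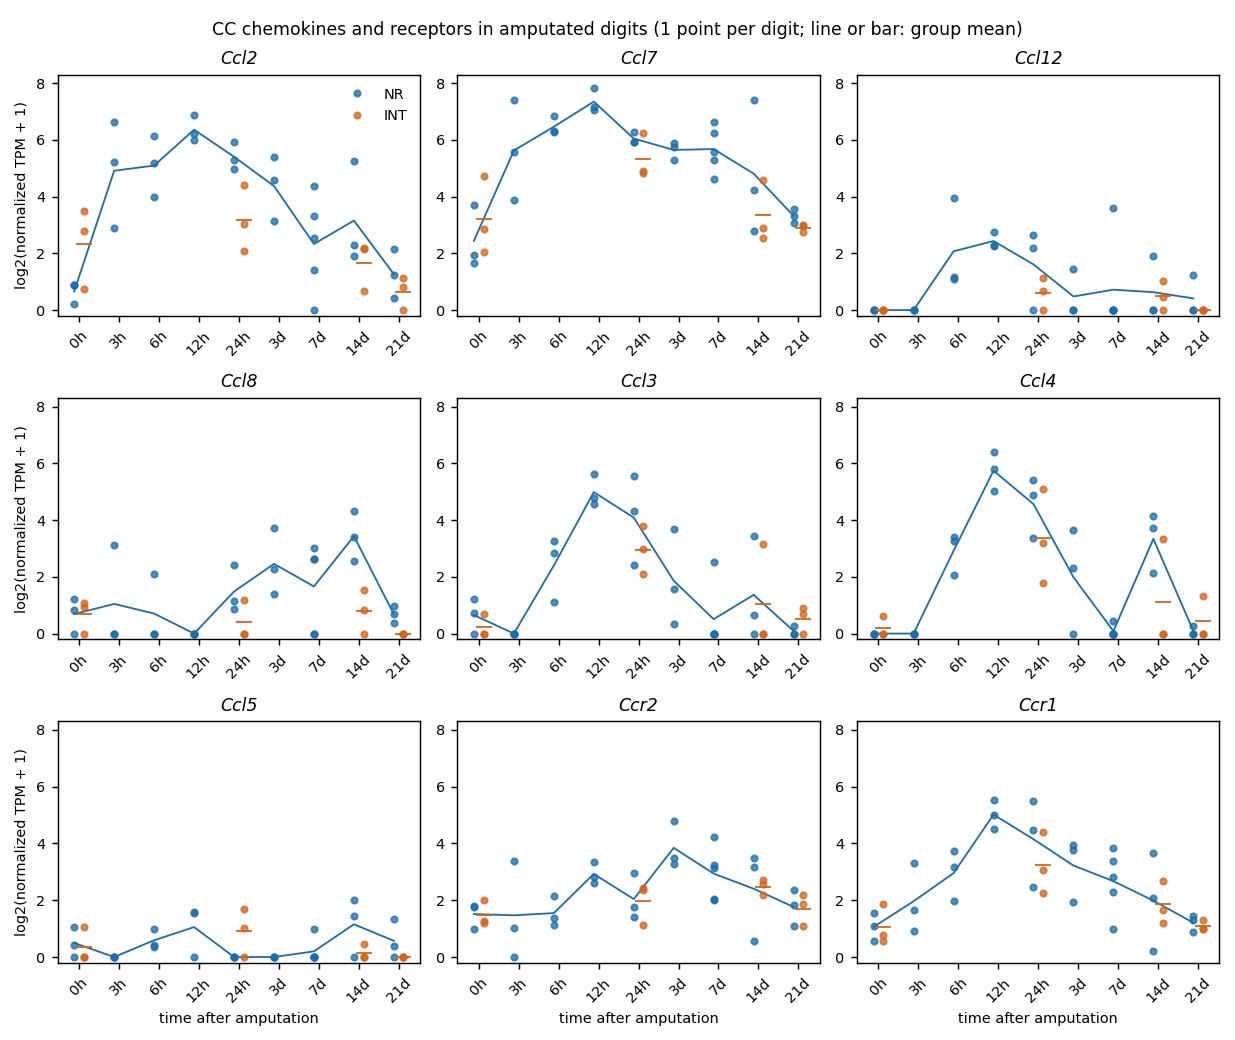
Level of the 9 members, as log2(normalized TPM + 1), by time after amputation, with 1 panel a gene and 1 point a digit (NR blue, INT orange). The blue line joins NR group means and the orange bars are INT group means on that scale. Ccl2, Ccl7, Ccl3, Ccl4 and Ccr1 are highest at 12 h in NR digits, and Ccr2 at 3 d.

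Ccl2, also known as MCP-1 and a principal Ccr2 ligand, stood at 0.83, 0.84 and 0.17 normalized TPM in the 3 NR digits of 0 h. At 3 h the digits held 36.0, 6.34 and 99.0, and at 6 h 69.2, 35.0 and 14.7. At 12 h they held 61.9, 73.0 and 117.0, and at 24 h 38.0, 30.7 and 60.4. Every NR digit from 3 to 24 h was therefore above every digit of 0 h. The log2 change from 0 h was 5.99 (SE 0.75, adjusted p = 0.0064) at 6 h, 7.10 (SE 0.46, adjusted p = 0.000231) at 12 h and 6.11 (SE 0.51, adjusted p = 0.000383) at 24 h. The 0 h digits held between 1 and 4 Ccl2 reads each, and the pooled ratio of 12 h to 0 h was 141.5 (95% counting interval 68.3 to 353.3). At 3 d the digits held 40.6, 7.88 and 23.0, a log2 change of 5.19 (SE 0.80, adjusted p = 0.027). That call was lost when any single NR 0 h digit, or NR 3 d replicate 1 or 3, was left out (log2 change 4.63 to 5.56), and also with all 41 digits in the fit or a date term. By 21 d Ccl2 was back to 1.35, 0.342 and 3.42 normalized TPM. Ordered by mean, each neighbouring pair of NR time points overlapped in Ccl2.

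Ccl7, or MCP-3, lies next to Ccl2 and binds both Ccr2 and Ccr1. Its levels were 12.2, 2.13 and 2.88 at 0 h, 112.4, 75.8 and 77.5 at 6 h and 133.0, 140.6 and 225.6 at 12 h. All digits of 6 and 12 h were above all of 0 h, with log2 changes of 4.13 (SE 0.59, adjusted p = 0.0105) and 5.07 (SE 0.58, adjusted p = 0.00164). The call at 6 h was lost without NR 0 h replicate 3 (log2 change 3.8). At 24 h it held 59.9, 59.4 and 77.2, a log2 change of 3.70 (SE 0.57, adjusted p = 0.0048). Ccl7 was above the 0 h range in every digit of 3 d (38.3 to 57.7) and 7 d (23.7 to 97.9), though neither time passed the test (adjusted p = 0.0585 and 0.288). At 14 d the digits ranged widely, from 5.85 and 17.9 to 169.2 in replicate 3. That digit also had the highest Ccl2 of 14 d (37.4 against 2.75 and 3.90) and the highest summed neutrophil markers (2514.3 against 64.9 and 352.4), whose part was not tested. By 21 d Ccl7 held 7.41, 8.98 and 10.8, within the range of 0 h.

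Ccl12, or MCP-5, another Ccr2 ligand, was scarce in every digit. It was at 0 in all NR digits of 0 and 3 h and in 25 of 41 digits, and no digit held more than 23.0 reads. At 6 h it reached 14.5, 1.25 and 1.1 normalized TPM and at 12 h 3.77, 3.87 and 5.81, so each digit of these times held some Ccl12 reads while no 0 h digit did. Against a floor of 3 reads per library at 0 h, these group means are at least 3.07-fold higher at 6 h and at least 2.39-fold higher at 12 h. The value at 6 h rests on replicate 1, with 23 reads, as replicates 2 and 3 held only 2 and 3 reads. In neither comparison did Ccl12 pass the filter for testing.

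Ccl8, or MCP-2, was low in digits and did not pass over the time course. It was at 0 in all 3 NR digits of 12 h, the time at which its neighbours Ccl2 and Ccl7 were highest. Its highest levels came at 14 d, with 4.93, 19.1 and 9.56 normalized TPM against 1.35, 0 and 0.774 at 0 h. These ranges did not overlap, but the log2 change of 3.69 (SE 1.17) had adjusted p = 0.46, and no digit held more than 30.0 reads. A count of 0 allows up to 3 reads per library, so Ccl8 was not detectable at this depth at 12 h.

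Ccl3 and Ccl4, the macrophage inflammatory proteins 1 alpha and 1 beta, were at or near 0 at 0 and 3 h. Both were present in every NR digit of 6 h and rose at 12 and 24 h. Replicates 2 and 3 of 3 h were the shallowest digit libraries (2848956 and 1468749 total expected counts), so low levels could be missed there. Ccl4 was at 0 in all NR digits of 0 and 3 h. It held 8.64, 9.53 and 3.21 normalized TPM at 6 h, 54.3, 31.4 and 84.0 at 12 h and 28.8, 9.37 and 41.6 at 24 h. Every digit from 6 to 24 h was above those of 0 h, by a group mean at least 4.94-fold higher at 6 h, at least 38.8-fold at 12 h and at least 18.5-fold at 24 h, against the floor of 3 reads. Ccl4 passed the test at 12 h (adjusted p = 0.00161) and 24 h (adjusted p = 0.00525), and at 6 h it did not pass the filter for testing.

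Ccl3 held 1.32, 0.669 and 0 normalized TPM at 0 h and was at 0 in all digits of 3 h. At 6 h it held 6.09, 8.59 and 1.14, which overlapped the digits of 0 h. It held 26.7, 22.4 and 47.9 at 12 h and 18.8, 4.27 and 46.1 at 24 h, all above the 0 h digits. The log2 change was 5.75 (SE 0.74, adjusted p = 0.00271) at 12 h and 5.27 (SE 1.10, adjusted p = 0.0158) at 24 h. The 0 h digits held 3 reads or fewer, and the pooled ratio was 56.3 (95% counting interval 25.5 to 154.9) at 12 h and 36.8 (16.6 to 101.5) at 24 h. The call at 24 h was lost without NR 0 h replicate 2 or 3 or NR 24 h replicate 3 (log2 change 4.27 to 5.43), and those at both times with all 41 digits in the fit. By 7 d Ccl3 was at 0 in 4 of 5 digits.

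Ccl5, or RANTES, which draws T cells and monocytes, was nearly absent from the digits. It ranged from 0 to 3.05 normalized TPM, was at 0 in 25 of 41 digits and had at most 10 reads. T and NK cell markers were also near 0, summing to 11 normalized TPM or less in every digit.

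Of the receptors, Ccr1 rose with the ligands. It held 1.95, 1.1 and 0.462 normalized TPM at 0 h, 12.3, 7.96 and 2.93 at 6 h, 31.0, 21.8 and 45.6 at 12 h and 21.3, 4.53 and 44.5 at 24 h. All digits from 6 to 24 h were above all of 0 h. The log2 change was 2.80 (SE 0.65, adjusted p = 0.0451) at 6 h, 4.93 (SE 0.49, adjusted p = 0.000896) at 12 h and 4.45 (SE 0.84, adjusted p = 0.011) at 24 h. The call at 6 h was lost without NR 0 h replicate 2 or 3 or NR 6 h replicate 1 or 2 (log2 change 2.32 to 2.80), by limma and with all 41 digits in the fit.

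Ccr2 was highest at 3 d. Its levels were 0.993, 2.49 and 2.36 normalized TPM at 0 h, 6.05, 5.09 and 9.24 at 12 h, 2.37, 1.67 and 6.76 at 24 h and 10.2, 8.72 and 26.5 at 3 d. The digits of 12 h and 3 d lay above those of 0 h, while those of 24 h overlapped them. It rose at 12 h by 2.14 on the log2 scale (SE 0.47, adjusted p = 0.0181), and the log2 change of 3.06 at 3 d (SE 0.56) missed the threshold at adjusted p = 0.0585. The call at 12 h was lost without NR 0 h replicate 2 or 3 or NR 12 h replicate 1 or 3 (log2 change 1.80 to 2.34) and with all 41 digits in the fit. From 24 h to 3 d the log2 change was 2.23 (SE 0.59, adjusted p = 0.0836).

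**Figure D2:**
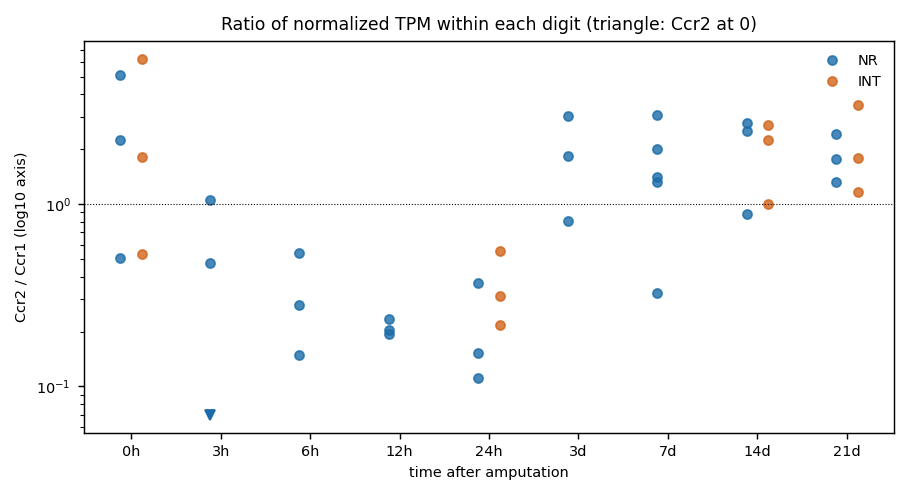
Ratio of Ccr2 to Ccr1 normalized TPM in each digit, on a log axis, by time after amputation (NR blue, INT orange), with a triangle for the digit in which Ccr2 was at 0 and a dotted line at a ratio of 1. The 3 NR digits of 12 h lie between 0.195 and 0.233 and those of 3 d between 0.807 and 3.04.

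The balance of the 2 receptors differed between time points. Ccr2 divided by Ccr1 lay between 0.509 and 5.11 in the NR digits of 0 h, between 0.195 and 0.233 at 12 h, between 0.111 and 0.368 at 24 h and between 0.807 and 3.04 at 3 d. The ranges of 24 h and 3 d did not overlap, and those of 0 h and 12 h did not either. All 12 h digits were of the earlier period, and the 0 h digit of that period was at 0.509. The later 0 h digits were at 2.24 and 5.11, so period and time are mixed in the contrast of 0 h with 12 h. In INT digits the ratio ran from 0.534 to 6.28 at 0 h and from 0.216 to 0.553 at 24 h.

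Counted over the members, 3 of 4 tested rose at 6 h against 0 h, where 4.85% of all genes tested changed and 3.23% rose. At 12 h 6 of 6 rose (11.4% of all genes changed, 6.76% rose), at 24 h 5 of 6 (10.7% and 5.57%) and at 3 d 1 of 4 (0.723% and 0.557%). The rule was an adjusted p under 0.05 and a change over 2-fold, and a low member is tested only if it was high enough in one group, so these counts favour members that rose. Of all 9 members, 5 were higher without overlap at 6 h (13.6% of genes tested), 7 at 12 h (18.4%), 5 at 24 h (16.1%) and 5 at 3 d (8.57%). Without NR 0 h replicate 1 the count at 12 h was 6, and without NR 12 h replicate 3 it was 5. With only NR digits labelled above 67%, which leaves 1 digit at 0 h and none at 12 h, no member and no gene passed at 6 h, 24 h or 3 d. The log2 changes of Ccl2 in that fit were 6.62, 7.43 and 6.47, and that of Ccl7 was 4.79 at 6 h and 4.58 at 24 h. Those of Ccl2 were larger than with all NR digits, but they rest on NR 0 h replicate 3. That digit held 1 Ccl2 read and the lowest Ccl2 of 0 h (0.171 normalized TPM).

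At 3 h no member passed, as no gene did by edgeR (0%), although 1362 genes (10.8%) had an unadjusted p under 0.05 and DESeq2 called 202 (1.17%). Of the 4 members tested, Ccl2 (log2 change 6.23, adjusted p = 0.209) and Ccl7 (3.89, adjusted p = 0.296) had an unadjusted p under 0.05 at 3 h, and DESeq2 called both. The 3 h digits spread widely in each, with replicate 3 highest and replicate 2 lowest.

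None of the members tested passed by edgeR at 7 d (0.0537% of all genes), 14 d (0%) or 21 d (0.452%). At an unadjusted p under 0.05 stood 3 of 4 members at 7 d (4.34% of genes), 3 of 5 at 14 d (7.70%, 1044 genes) and 0 of 3 at 21 d (7.20%). DESeq2 called Ccl7 at 7 d (0.938% of genes), Ccl2 and Ccl4 at 14 d (1.99%) and 0 members at 21 d (1.44%).

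Between neighbouring times, no member passed by edgeR from 3 to 6 h (0.106% of all genes), from 6 to 12 h (0.0641%) or from 24 h to 3 d (2.76%). At an unadjusted p under 0.05 stood 0 of 4 members (13.3% of genes), 6 of 6 (11.4%) and 2 of 6 (18.7%). DESeq2 called 0 members from 3 to 6 h (2.1% of genes), Ccl3, Ccl4 and Ccr1 from 6 to 12 h (1.31%) and Ccr2 from 24 h to 3 d (4.12%).

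**Figure D3:**
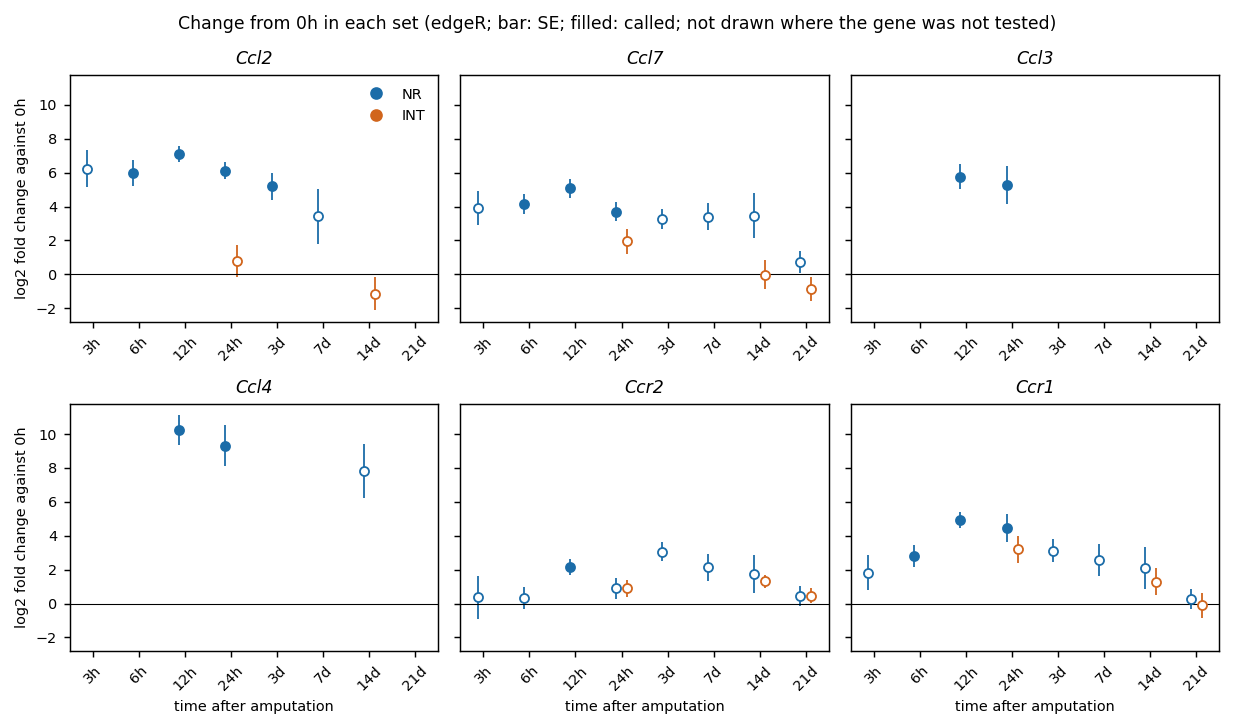
Log2 change from 0 h with its SE (bars) by time after amputation for Ccl2, Ccl7, Ccl3, Ccl4, Ccr2 and Ccr1, from edgeR, in NR (blue) and INT (orange) digits. Filled points passed the rule and open points did not, and no point is drawn where the gene was not tested. Ccl2 at 12 h in NR digits stands at 7.10, and no INT point is filled.

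Neutrophil markers also rose, and their summed mean was highest at 24 h (1319.1 normalized TPM against 924.3 at 12 h), though digits of both times overlapped. By gene, their median log2 change was 3.72 at 12 h and 3.11 at 24 h. Their sum was 59.0 to 166.5 at 3 h and 102.0 to 971.6 at 7 d. All 7 tested of 8 rose at 12 h, where 6.76% of all genes rose, and 4 of 6 tested at 24 h, where 5.57% did. The summed level of these markers was 43.8 to 49.3 normalized TPM at 0 h, 245.8 to 324.7 at 6 h and 482.3 to 1282.4 at 12 h. It was 1163.3 to 1486.8 at 24 h and 711.2 to 1174.2 at 3 d. Monocyte markers summed to 42.2 to 62.8 at 0 h, 75.7 to 129.2 at 12 h and 30.7 to 182.4 at 3 d, with 3 of 7 tested higher at 12 h and 1 of 7 lower at 6 h. Macrophage markers summed to 160.3 to 306.8 at 0 h, 205.6 to 330.6 at 12 h and 203.1 to 687.6 at 3 d, with 1 of 10 higher at 12 h, near the share of all genes, and 1 of 9 lower at 6 h. The part of these cells in the members' levels was not tested.

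The NR digits of 12 h can be set against the 0 h digit of their own period. On the log2(normalized TPM + 1) scale the differences were 5.49 for Ccl2, 3.63 for Ccl7, 3.77 for Ccl3, 5.74 for Ccl4, 1.93 for Ccr2 and 3.46 for Ccr1, each with 1 digit at 0 h. With the period as a term in a fit of all 41 digits, Ccl2 (log2 change 6.13, adjusted p = 0.0093), Ccl7 (4.98, adjusted p = 0.00565), Ccl4 (adjusted p = 0.00733) and Ccr1 (4.22, adjusted p = 0.0214) still passed at 12 h by edgeR. Ccl3 (4.79, adjusted p = 0.177) and Ccr2 (1.64, adjusted p = 0.482) did not.

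Digits of both periods were present at 6 and 24 h. At 6 h the difference in Ccl2 from 0 h, on the same scale of log2(normalized TPM + 1), was 4.78 within the earlier period and 3.42 within the later, and at 24 h 4.74 and 4.43. For Ccl7 it was 2.83 and 4.49 at 6 h and 2.39 and 4.11 at 24 h. These rises thus kept their direction within each period. For Ccr1 at 24 h the values were 3.43 and 1.66, for Ccl3 3.72 and 2.03 and for Ccl4 5.16 and 3.37. Ccr2 turned, with 0.64 and -0.41 at 6 h and 1.36 and -0.36 at 24 h, times at which it did not pass. These within-period values rest on 1 or 2 digits a side. With the period as a term, Ccr1 no longer passed over the time course (adjusted p = 0.0784).

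Among single genes, the closest courses over the 29 NR digits, by Spearman correlation of normalized TPM, were Pvr for Ccl2 (0.90), Adamts4 for Ccl7 (0.83), Osm for Ccl3 (0.89), Saa2 for Ccl4 (0.88), C3ar1 for Ccr2 (0.83) and Lilrb4a for Ccr1 (0.96). For Ccl8 it was Slc7a7 (0.83) and for Ccl12 Fpr2 (0.77), both on few reads. Among the members, Ccl2 correlated 0.76 with Ccl7 and 0.77 with Ccr1, Ccl3 0.74 with Ccl4, and Ccl8 between -0.20 and 0.23 with each other member. These digits share their time points, so the correlations are descriptions.

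In INT digits the first time after 0 h was 24 h. Ccl2 held 0.691, 10.1 and 5.95 normalized TPM at 0 h and 20.1, 3.25 and 7.12 at 24 h, and the groups overlapped. Ccl3 held 0, 0.601 and 0 at 0 h and 12.8, 3.25 and 6.81 at 24 h, and Ccl4 0, 0 and 0.518 against 33.2, 2.47 and 8.2. All 24 h digits were above all 0 h digits in both genes, on pooled ratios of 41.4 (95% counting interval 11.1 to 348.3) and 125.6 (22 to 4994.4). Ccr1 ranged from 0.480 to 2.66 at 0 h and from 3.82 to 20.4 at 24 h and did not pass the test (log2 change 3.20, SE 0.80, adjusted p = 0.15). Of 4 members tested 0 passed by edgeR (0.0152% of all genes), 2 had an unadjusted p under 0.05 (15.4%), and DESeq2 called Ccl3, Ccl4 and Ccr1 (2.08%). INT replicate 1 was highest in each of these genes at 24 h, and its summed neutrophil markers were also highest (1470.0 against 201.0 and 473.6), whose part was not tested.

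At 14 d and 21 d against 0 h in INT digits no member passed by edgeR (1.68% and 1.39% of all genes), and 1 of 4 and 0 of 3 members had an unadjusted p under 0.05 (13.4% and 16.6%). DESeq2 called 0 members at both times (2.82% and 2.30% of genes). At 14 d Ccr2 held 5.49, 4.88 and 3.56 normalized TPM against 3.02, 1.29 and 1.42 at 0 h, ranges that did not overlap (log2 change 1.32, SE 0.39, adjusted p = 0.171). At 21 d Ccl2 was 0, 1.22 and 0.757.

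Set against NR digits of the same time, Ccl2 gave the largest difference of the members tested at 24 h. The NR digits held 38.0, 30.7 and 60.4 normalized TPM and the INT digits 20.1, 3.25 and 7.12, with no overlap, as in 1 of the 9 members, where 7.06% of all genes were lower without overlap. The log2 difference of -2.09 (SE 0.57) had an unadjusted p of 0.00571 and an adjusted p of 0.33. No gene passed by edgeR at 24 h (0%), with 1472 genes (11.3%) and 1 of 6 members at an unadjusted p under 0.05, while DESeq2 called 155 genes (0.870%), Ccl2 among them. Without INT 24 h replicate 1, edgeR called Ccl2 and Ccl7 among 653 genes. That digit is the only INT digit of 24 h from the earlier period, while 2 of the 3 NR digits are earlier. Without it, amputation level and period are mixed in this comparison.

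The change from 0 h in INT digits less that in NR digits was -5.30 for Ccl2 at 24 h (SE 1.26, unadjusted p = 0.00107, adjusted p = 0.498), and no gene passed by edgeR (0%), with 1132 (8.09%) at an unadjusted p under 0.05. Without INT 24 h replicate 1 it was -6.17 and Ccl2 passed (adjusted p = 0.0341), again with only later INT digits left at 24 h. At 14 d and 21 d no gene passed either (0%), and 1 of 6 and 1 of 4 members had an unadjusted p under 0.05, against 3.59% and 5.92% of genes. At 0 h Ccl2 overlapped between the groups and was too low to test, with 0.691, 10.1 and 5.95 normalized TPM in INT digits. For the receptors the log2 difference between INT and NR at 24 h was 0.08 for Ccr2 and -1.17 for Ccr1. At 0 h, 14 d and 21 d no member passed between INT and NR by edgeR (0%, 0% and 0.648% of all genes), with 0 of 3, 1 of 6 and 0 of 3 members at an unadjusted p under 0.05 (3.64%, 2.0% and 14%). DESeq2 called 0 members at these times (0.0846%, 0.0112% and 1.10% of genes). At 21 d the INT digits were all of the earlier period and the NR digits all of the later. Amputation level and period cannot be told apart there. At 14 d Ccl8 held 0.770, 0 and 1.91 in INT against 4.93 to 19.1 in NR digits (log2 difference -3.45, SE 1.25, adjusted p = 0.862).

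In macrophages all 7 ligands were higher in M1 than in M0, and Ccr2 was lower. All 9 members passed the rule in M1 against M0 (8 higher and 1 lower), where 46.1% of all genes did (20.1% higher and 26.0% lower). In M2 against M0, 7 members passed (6 higher, 1 lower), against 22.3% of genes (11% and 11.3%), and in M1 against M2 8 members did, against 48.0%. Macrophage markers summed to 25941.9 to 29246.2 normalized TPM in M0.

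**Figure D4:**
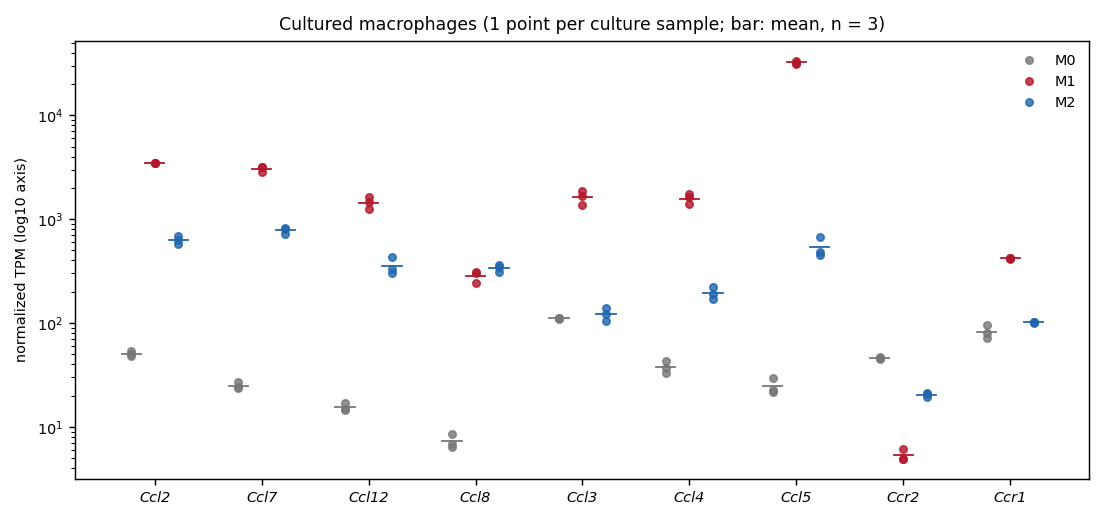
Normalized TPM of the 9 members in M0, M1 and M2 macrophages on a log axis, with 3 cultures a state as points and their mean as a short bar. Ccl5 runs from 24.7 in M0 to 32215.6 in M1, and Ccr2 from 46.3 to 5.35.

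Ccl2 held 47.9, 53.7 and 50.6 normalized TPM in M0, 3438.5, 3451.6 and 3467.5 in M1 and 683.3, 573.6 and 636.4 in M2. The 3 states did not overlap, and the log2 change was 6.07 (SE 0.06, adjusted p = 6.31e-15) in M1 and 3.55 (SE 0.08, adjusted p = 5.17e-11) in M2 against M0. Ccl7 followed the same order, with 25.0 ± 1.59 (SD, n = 3) in M0, 3065.8 ± 178.4 in M1 and 779.9 ± 52.3 in M2. Ccl12, scarce in digits, held 14.6, 15.0 and 16.8 in M0, 1456.0, 1628.2 and 1238.1 in M1 and 430.4, 301.9 and 329.0 in M2.

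Ccl8 was the exception among the ligands of the run from Ccl2 to Ccl8. It held 6.46, 8.57 and 6.84 normalized TPM in M0, 302.5, 242.3 and 310.0 in M1 and 365.5, 310.6 and 345.9 in M2. M1 and M2 both lay far above M0 (log2 change 5.32, SE 0.13, adjusted p = 2.16e-12, and 5.50, SE 0.11, adjusted p = 3.74e-11). Between them the log2 difference of M1 from M2 was -0.27 (SE 0.08, adjusted p = 0.00687), under the 2-fold limit, whereas its neighbour Ccl12 was over 2-fold higher in M1.

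Ccl5 had the largest log2 change of the members in M1, against both M0 and M2. It held 21.7, 22.5 and 29.8 normalized TPM in M0, 33528.4, 30949.2 and 32169.2 in M1 and 680.1, 452.5 and 477.9 in M2. The log2 change was 10.38 (SE 0.11, adjusted p = 6.31e-15) in M1 against M0, 4.39 (SE 0.18, adjusted p = 4.09e-09) in M2 against M0 and 5.89 (SE 0.14, adjusted p = 6.83e-14) in M1 against M2. The M1 cultures thus stood apart from both other states by well over their spread.

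Ccl3 and Ccl4 parted under interleukin 4. Ccl3 held 112.8, 108.6 and 112.3 in M0 and 138.7, 122.8 and 104.7 in M2, which overlapped (log2 change 0.08, SE 0.09, adjusted p = 0.436). Ccl4 held 36.7, 43.1 and 33.2 in M0 and 224.3, 190.6 and 169.9 in M2, without overlap (log2 change 2.32, SE 0.12, adjusted p = 1.59e-08). In M1 both were high, at 1634.4 ± 243.0 (SD, n = 3) and 1578.9 ± 172.0, with log2 changes from M0 of 3.89 and 5.41.

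The receptors went opposite ways in M1. Ccr2 held 45.4, 47.0 and 46.6 normalized TPM in M0, 4.95, 6.18 and 4.93 in M1 and 21.1, 20.6 and 19.4 in M2. It fell by 3.17 on the log2 scale in M1 (SE 0.07, adjusted p = 6.07e-13) and by 1.10 in M2 (SE 0.05, adjusted p = 1.1e-08). Ccr1 held 96.7, 71.9 and 79.5 in M0, 416.9, 423.3 and 426.1 in M1 and 100.1, 101.4 and 103.0 in M2. It rose by 2.36 in M1 (SE 0.08, adjusted p = 4.86e-11), and its log2 change of 0.23 in M2 (SE 0.09, adjusted p = 0.0333) was under the 2-fold limit. Ccr2 divided by Ccr1 was 0.570 ± 0.0935 (SD, n = 3) in M0, 0.0127 ± 0.00165 in M1 and 0.201 ± 0.0117 in M2.

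The mix of ligands differed between digits and macrophages, given here as shares of the summed normalized TPM of the 7 ligands, with no test between the tables. In the NR digits of 12 h, Ccl7 made up 48.6% ± 2.78 (SD, n = 3), Ccl2 24.4% ± 2.45, Ccl4 16.1% ± 4.01 and Ccl5 0.375% ± 0.361. In M1 Ccl5 made up 73.8% ± 1.46, Ccl2 7.91% and Ccl7 7.02%. In M0 the leading ligand was Ccl3 (40.9% ± 1.90) and in M2 Ccl7 (26.5%). Ccl7 divided by Ccl2 was 1.92 to 2.15 in the NR digits of 12 h, 0.492 ± 0.0104 in M0, 0.888 in M1 and 1.24 in M2. The summed ligand level was 8.19 ± 6.49 at 0 h, 345.2 ± 118.9 at 12 h and 12.6 ± 4.48 at 21 d in NR digits, and 43672.9 ± 1426.9 in M1.

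**Figure D5:**
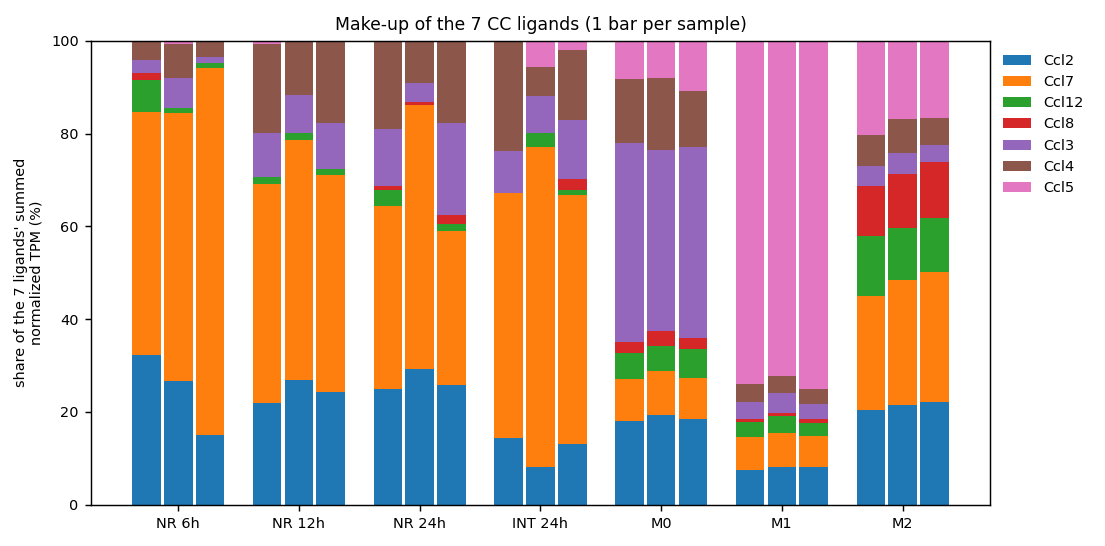
Share of each of the 7 ligands in their summed normalized TPM, in percent, as 1 stacked bar a sample for NR digits of 6, 12 and 24 h, INT digits of 24 h and the 3 macrophage states. Ccl7 makes up a mean of 48.6% in the NR digits of 12 h and Ccl5 73.8% in M1.

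Some other genes of the CC family passed the test too. Of 25 other CC chemokines and receptors, 1 of 14 tested rose at 6 h (3.23% of all genes rose), 6 of 17 rose and 1 fell at 12 h (6.76% rose), and 2 of 14 rose and 1 fell at 24 h (5.57% rose). Ccl20, the Ccr6 ligand, was highest at 6 h, at 37.5 ± 4.39 (SD, n = 3) normalized TPM against 0.380 ± 0.458 at 0 h (log2 change 6.66, SE 0.57, adjusted p = 0.00178). Ccl17, a Ccr4 ligand, was at 0 in all digits of 0 h and at 7.48 ± 2.22 at 12 h, and Ccl9 rose by 2.96 on the log2 scale. The list's median log2 change at 12 h was 0.76, against -0.03 over all genes. In the other NR comparisons with 0 h and in INT digits no gene of this list passed.

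In macrophages 6 of 11 tested genes of that list were higher and 3 lower in M1 than in M0 (20.1% and 26.0% of all genes), with Ccr7, the receptor of dendritic cell migration to lymph nodes, at a log2 change of 5.47 and Ccl6 at -2.91. In M2, 8 of 13 were higher and 2 lower (11% and 11.3% of all genes), led by Ccl11 (5.92), Ccl24 (5.41) and Ccl17 (5.34). Ccl17 and Ccl24 were lower in M1 than in M2, with log2 differences of -6.67 and -4.97.

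A list of 14 genes of monocyte adhesion, monocyte growth factors and fractalkine gave 6 higher of 13 tested at 12 h and 2 of 13 at 24 h in NR digits, against 6.76% and 5.57% of all genes. Selp, which encodes the P-selectin that captures leukocytes on the vessel wall, stood at 48.3 ± 4.42 (SD, n = 3) normalized TPM at 12 h against 4.90 ± 4.78 at 0 h, a log2 change of 3.66 (SE 0.50, adjusted p = 0.00331). Icam1, the endothelial ligand of leukocyte integrins, rose by 1.88 and the integrin subunit Itgam by 1.68. The median log2 change of the list was 1.1 at 12 h, against -0.03 over all genes. In macrophages 5 of 12 tested genes of this list were higher and 4 lower in M1 than in M0, where 46.1% of all genes passed. In M2, 6 of 13 were higher and 3 lower than in M0, where 22.3% of all genes passed. The median log2 change of the list was 0.63 in M1 and 0.79 in M2. Cx3cr1, the fractalkine receptor, went the other way and fell by 4.46 in M1 and by 4.43 in M2 against M0.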

How the data were processed

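Digit and macrophage libraries were made from polyadenylated RNA and read as single-end 65-base reads. Per the labels and the study's methods, the authors aligned reads with Bowtie to Ensembl transcripts of mm10 and estimated expected counts per gene with RSEM 1.2.3. They deposited these estimated counts, and a normalized TPM signal in which TPM values were scaled between libraries by median-by-ratio factors, separately for digits and macrophages. Its column sums ranged from 786283 to 3362791, and these values were used for levels. In the tables, 26 gene names changed to dates were restored.

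Expected counts were rounded and tested with edgeR 4.0.16 in R 4.3.3 (quasi-likelihood test, filterByExpr, TMM factors), fitted over all genes for each pair of groups, with Benjamini-Hochberg adjustment. A gene was called at an adjusted p under 0.05 and over 2-fold change of the mean normalized count with 1 added. The time course and the difference of changes had no fold limit. Floors used 3 counts per library, counting intervals were exact at 95%, and both cover counting error only.

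Macrophage replicate numbers did not pair the cultures (correlation of deviations -0.11 to 0.114 for the same number and -0.109 to 0.134 for others). Digits carry no shared replicate number, and the tests treated all digits as independent, including the 5 pairs that share mark, date and side. Whether the digits of a pair are related is not known. Alternatives were DESeq2 1.42.0, limma 3.58.1, other scaling, no low-count filter, no fold limit, each replicate left out, all 41 digits together, a date term, and NR digits above 67%. Named genes were the 9 members, up to 4 of each list by size of change, and the 3 genes closest in course to each member, of which the text names the closest. The members and lists were chosen with earlier results of these data known. Scripts were tested on simulated data. A check of read windows shared between genes is not reported here.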

Additional observations from a re-analysis of the deposited data

Results flagged for a closer look

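In the NR digits of 7 d, the only group with more than 3 samples, 4 members each had 1 digit far from the other 4 by Dixon's criterion for 5 samples. Ccl12 was at 11.1 normalized TPM in 1 digit, Ccl3 at 4.77, Ccl4 at 0.348 and Ccl5 at 1.0, and in each case the other 4 digits were at 0. The criterion passes about 1 group in 20 by chance, and with 4 values at 0 any value above 0 meets it. Ccl3 and Ccl5 shared the digit.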

How the results depend on the processing

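The counts in macrophages (9, 7 and 8 members) kept their side under each alternative, with a change of at most 1.5 times, and the replicate block gave 9, 7 and 8 again. Members called at 3 h against 0 h in NR digits rose from 0 to 1 with no low-count filter and to 2 with DESeq2. At 6 h the count of 3 became 5 with DESeq2, 0 with only NR digits labelled above 67%, and 1 to 4 with a replicate left out (1 without NR 0 h replicate 3, when 108 genes were called). At 12 h it was 5 to 6 with a replicate left out, and Ccl3 and Ccr2 lost their calls with all 41 digits and with the date term. At 24 h the count of 5 became 0 with only digits above 67%, and 4 to 5 with a replicate left out. At 3 d the count of 1 became 4 with no filter, 4 with DESeq2, 0 with all 41 digits, 0 with the date term, 0 with digits above 67%, and 0 to 3 with a replicate left out (3 without NR 3 d replicate 2). At 7 d the count of 0 became 1 with DESeq2, with all 41 digits and with the date term. At 14 d it became 2 with DESeq2, 3 with all 41 digits and 3 with the date term. From 6 to 12 h it became 2 with no filter, 3 with DESeq2 and 0 to 3 with a replicate left out (3 without NR 6 h replicate 1). From 24 h to 3 d it became 1 with no filter, 1 with DESeq2 and 0 to 1 with a replicate left out (1 without NR 3 d replicate 2). In INT digits at 24 h DESeq2 gave 3. Between INT and NR digits at 24 h it gave 1, and leaving out replicates gave 0 to 2. The difference of changes at 24 h ranged from 0 to 1. The time course count of 5 became 2 with digits above 67%, and 5 without NR 14 d replicate 2 and NR 3 h replicate 2, an alternative chosen after seeing the data. The cause was not tested, but digits above 67% leave few samples a time and none at 12 h, so that comparison was not run there. No result reversed.

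Among single members, DESeq2 kept 39 of 39 calls, other scaling 44 of 44, and leaving out replicates 367 with 17 lost. The fit of all 41 digits kept 10 and lost 5. Over all genes, the time course gave 1100 with TMM, 2354 with RLE factors and 400 with digits above 67%. DESeq2 called 1116 genes at 6 h against 638, 439 at 3 d against 96, and 164 at 7 d against 7. Counts of genes from 24 h to 3 d were 358 by edgeR and 718 by DESeq2, and from 6 to 12 h 8 and 230. Members under about 10 reads per digit, Ccl12, Ccl8 and Ccl5 above all, could not be compared at this depth.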
